A study of Mus musculus with 6 samples.

Results

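Regulatory T (Treg) cells are CD4 T cells that hold other immune cells in check and depend on the transcription factor Foxp3. The data described here are the 2 wild-type (WT) libraries of a series of 6 libraries from 3 genotypes, WT, Cdc42+/- and Cdc42-/-, with 2 mice of each. They were chosen by their titles, and the other genotypes enter no statement. Per the labels, the spleen was made into a suspension, erythrocytes were removed by lysis, magnetic sorting raised the share of CD4 T cells, and flow sorting then collected the CD4+YFP+ fraction (YFP is a fluorescent protein). No culture or stimulation before RNA extraction is mentioned. The labels describe both WT mice only as wild type and name neither the allele that drives YFP nor the age, sex or strain of the mice. The question is a descriptive one: which transcription factors, surface receptors, signalling molecules and metabolic enzymes wild-type spleen Treg cells transcribe, and at what level.

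Foxp3 keeps the Treg programme in place and works with partners such as Ikzf2. Treg cells take up interleukin 2 through a receptor whose alpha chain is Il2ra, engage antigen-presenting cells through Ctla4, and signal through the same T cell receptor machinery as other CD4 cells. Resting T cells are small cells with a large store of ribosomes and actin, and they feed their mitochondria with pyruvate, fatty acids and glutamine.

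Levels are in RPKM, reads per 1000 bases of gene length, scaled to a common library size, so genes of different length can be set side by side. Wherever a pair of levels is given, replicate 1 comes before replicate 2. With n = 2 the pair shows the whole spread, no test between genotypes or genes was made, and 2 genes are said to differ only where their pairs do not overlap. The libraries held 15911812 and 8556576 reads over 14608 genes, so 3 reads in a gene of 1000 nt were worth 0.188 RPKM in replicate 1 and 0.350 RPKM in replicate 2. Across genes the log2(RPKM + 1) values of both libraries had a Pearson r of 0.984, which is a description because genes are not independent replicates. Of 8251 genes that averaged 5 RPKM or more, 84.1% differed by less than 1.25-fold between the libraries, and the median ratio of the higher to the lower library was 1.10.

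The defining markers of the labelled cell type were present in both libraries. Foxp3 stood at 131 and 118 RPKM, from 8219 and 3974 reads, and took rank 387 of 14608 genes by mean level. Il2ra, the high-affinity interleukin 2 receptor chain, reached 232 and 207 RPKM and rank 196. Ctla4, which removes costimulatory ligands from antigen-presenting cells, was at 157 and 130.0 RPKM and rank 328. Ikzf2, the zinc finger protein Helios, was at 132 and 125 RPKM and rank 374. All 4 genes were higher in replicate 1, by between 1.06-fold (Ikzf2) and 1.20-fold (Ctla4), beside a median ratio of 1.10 over genes that averaged 5 RPKM or more. Il2ra stood above the other 3 in level, and the pairs of Ctla4, Ikzf2 and Foxp3 overlapped. By reads not divided by length, Ikzf2, whose counted length is 9421 nt, moved up to rank 66, Il2ra moved up to rank 102 and Ctla4 moved down to rank 678. On GRCm38.p6, the RefSeq form of the mm10 assembly, Foxp3 lies on chromosome X from 7579676 to 7595243, a span that overlaps Flicr and Ccdc22. Il2ra lies on chromosome 2 from 11642792 to 11693194, Ctla4 on chromosome 1 from 60909025 to 60915832, and Ikzf2 on chromosome 1 from 69531207 to 69687351. The strand setting of the counting is not given in the sources used here, so reads of overlapping genes cannot be told apart. The same holds in part for the other gene lists, since 229 of 588 list members have a span that overlaps another annotated gene. Cd4, the marker of the sort, was at 193 and 185 RPKM.

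**Figure D1:**
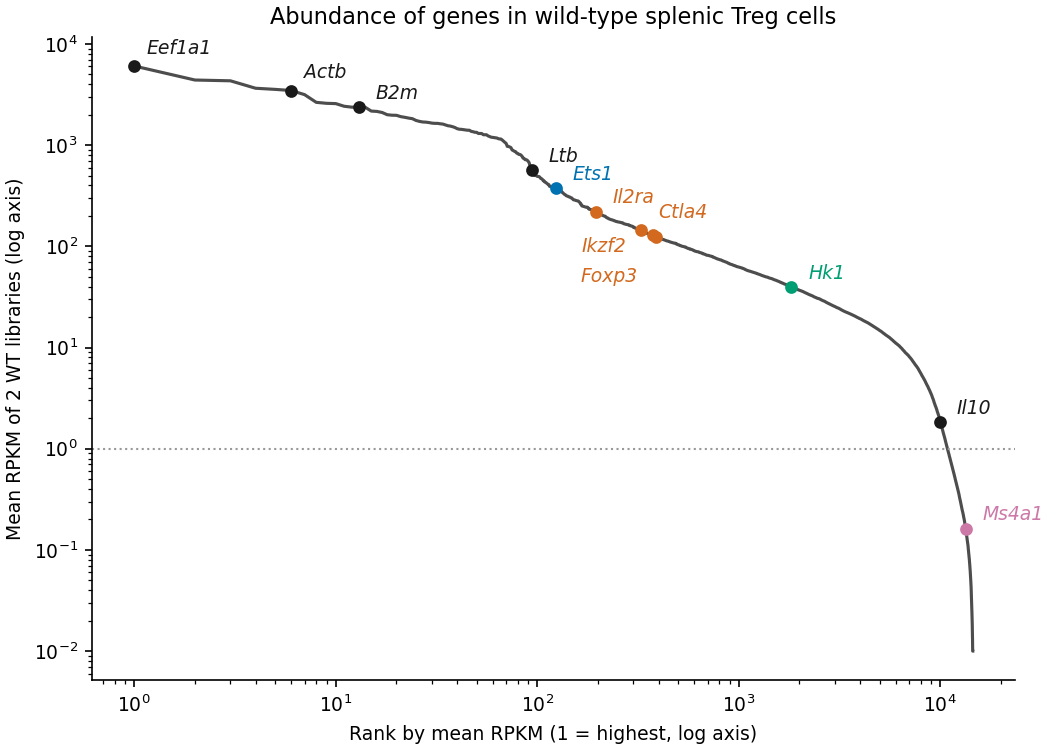
Mean RPKM of the 2 WT libraries (vertical log axis) against the rank of each of 14608 genes (horizontal log axis); labelled points are single genes, the dotted line marks 1 RPKM, and genes at 0 are drawn at 0.01. The Treg markers Il2ra, Ctla4, Ikzf2 and Foxp3 sit between ranks 196 and 387, below the translation and actin genes and well above Il10 and the B cell gene Ms4a1.

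Of 35 markers in the table for other cell types, 4 reached 5 RPKM in both libraries, against 54.7% of all genes. The count was 1 at a level of 10 RPKM, which 41.6% of all genes reached. It was 7 at 5 TPM, the same values rescaled to 1 common sum per library. That sum is larger than the summed RPKM of 412092 and 428920, so 5 TPM was a lower level than 5 RPKM. At 2.5 RPKM, which 63.2% of all genes reached, the count was 5. Cd79b, a chain of the B cell receptor, was at 13.3 and 7.40 RPKM, while the defining B cell gene Ms4a1 (CD20) was at 0.153 and 0.17 RPKM. Nkg7, a granule protein of NK and CD8 T cells, was at 16.7 and 21.0 RPKM. Cd8b1 was at 7.72 and 7.51 RPKM, but its partner chain Cd8a was at only 0.401 and 0.97 RPKM. Among 11 macrophage, monocyte and dendritic cell markers none reached 5 RPKM, and Itgax was at 0 and 0.058 RPKM. The neutrophil gene S100a8 was at 5.93 and 20.6 RPKM, and the summed level of 6 neutrophil markers was 12.2 RPKM in replicate 1 and 50.4 RPKM in replicate 2. The 11 macrophage, monocyte and dendritic cell markers summed to 3.59 and 9.56 RPKM, so both myeloid lists were higher in replicate 2. In bulk RNA, fewer cells of a type and less RNA per cell cannot be told apart. Listed markers such as Ighm, Hbb-bs and Pf4 were not analysed here, so they say nothing about B cells, red cells or platelets.

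Transcription was spread over many genes but its mass was not. In both libraries 10388 genes, 71.1% of the table, were at 1 RPKM or more, and 54.7% were at 5 RPKM or more. Only 496 genes reached 100 RPKM in both, and 69 reached 1000 RPKM. The 372 genes with the highest mean level held 50% of the summed RPKM. Of 13589 protein-coding genes, 9896 were at 1 RPKM or more in both libraries.

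The highest gene was Eef1a1, the elongation factor that brings aminoacyl-tRNA to the ribosome, at 5974 and 6133 RPKM. Tpt1, a translation-linked protein, followed at 4240.4 and 4560.2 RPKM. Tmsb4x, thymosin beta 4, which binds actin monomers, was at 4038 and 4606 RPKM. The pairs of Tpt1 and Tmsb4x overlapped, and Eef1a1 stood above both. Actb, the main cytoplasmic actin, was at 3436 and 3498 RPKM. Beta-2 microglobulin (B2m), the light chain of MHC class I, was at 2246 and 2493 RPKM, and the class I heavy chain H2-K1 was at 2177 and 2164 RPKM. Of the 20 highest genes 12 encoded ribosomal proteins, led by Rplp1 at 2940.3 and 3372 RPKM and Rps14 at 2494 and 2802 RPKM. Of the 50 highest, 40 did so when the ubiquitin fusions are counted.

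Ribosomal proteins held the largest share of the classes counted. The 77 genes of the class made up 23.8% and 25.6% of the summed RPKM. In both libraries 68 of them were at 500 RPKM or more, beside 0.657% of all genes. Only Rps27, at 2.97 and 3.99 RPKM, and Rpl34, at 1.17 and 0.545 RPKM, were under 10 RPKM in both, and their reads could be split with near-identical copies, so these levels are uncertain. The other genes of the class below 500 RPKM ranged down to Rpl22 at 100.0 and 115 RPKM. Because ribosomal protein genes are short, the class took a smaller share of the reads, 7.90% and 8.75%. Actin, profilin, cofilin, coronin and the beta thymosins (7 genes) held 2.88% and 2.97% of the summed RPKM. In this group profilin (Pfn1) was at 1306 and 1406 RPKM, Coro1a, a coat protein of cortical actin, at 889 and 879 RPKM, and the actin-severing Cfl1 at 801 and 856 RPKM. Elongation factors (6 genes) held 1.96% and 1.92%. MHC class I and II genes (27) held 1.52% and 1.51%, and nuclear-encoded subunits of oxidative phosphorylation (78) held 1.52% and 1.61%. Proteasome subunits (42) held 0.799% and 0.814%, among them the immunoproteasome subunit Psmb8 at 319 and 357 RPKM. The 8 Gimap genes, GTPases tied to lymphocyte survival, held 0.484% and 0.433%, with Gimap3 at 846 and 773 RPKM and the lowest member, Gimap5, at 43.9 and 45.3 RPKM.

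Ribosomal RNA entered the same table. Rn45s, the ribosomal RNA precursor, was at 2293 and 4820.0 RPKM, which was 1.34% of the reads of replicate 1 and 2.81% of those of replicate 2. Mir6236, a microRNA entry of 123 nt, was at 2463 and 4834 RPKM, from 4823 and 5091 reads. Its mature form as listed by RefSeq (GRCm38.p6) is shown because this entry ranks among the highest of the table; capitals mark the seed, bases 2 to 8.
mmu-miR-6236: gCCGUCGCcggcagucagg
The sequence lies at chr9:110281353-110281371 on the plus strand. Reads were counted over the whole entry, so the level is not that of the mature microRNA. Both entries were about 2-fold higher in replicate 2.

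The letters of start regions were counted in genes above and below 1 RPKM and in the 500 highest. Promoters here are the 300 bases from 250 before to 50 after the first start that RefSeq lists (GRCm38.p6), available for 11495 genes of the table. Motifs were searched as exact letters on both strands, and partial overlaps between motifs were counted for each. The core that ETS factors bind, searched as CCGGAAG, was found in 21.1% of 8343 promoters of genes at 1 RPKM or more in both libraries and in 5.11% of 2523 promoters of genes under 1 RPKM in both. Among the 500 highest genes with a promoter it was in 19.6%. It was in 16.9% of all 11495 promoters of the table and in 9.12% of all 27025 RefSeq promoters. The TATA box, searched as TATAAA, was in 6.70% of promoters at 1 RPKM or more against 11.0% under 1 RPKM, and in 12.8% of the 500 highest. GC boxes, searched as GGGCGG, were in 65.5% of promoters at 1 RPKM or more against 49.1% under 1 RPKM. E-boxes, searched as CACGTG, were in 10.8% against 6.90%. RUNX cores, searched as TGTGGT, were in 12.5% against 15.5%. The CCAAT box, searched as its longer form CCAATC, was in 21.6% against 18.0%. Among the 500 highest genes with a promoter the GC box was in 61.4%, the E-box in 10.8%, the RUNX core in 14.2% and the CCAAT box in 19.6%. Over all RefSeq promoters these shares were 14.2% for the TATA box, 35.9% for the GC box, 7.24% for the E-box, 16.9% for the RUNX core and 16.6% for the CCAAT box. In the same order they were 7.86%, 61.1%, 9.69%, 13.3% and 20.7% over the 11495 promoters of the table. CpG content also differed: the median promoter held 21 CG pairs at 1 RPKM or more, 21 in the 500 highest and 12 under 1 RPKM, and its part in the shares was not tested.

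The start regions of 4 genes described here show these letters, with motif matches in capitals, 5′ to 3′ on the strand of the gene.
Foxp3: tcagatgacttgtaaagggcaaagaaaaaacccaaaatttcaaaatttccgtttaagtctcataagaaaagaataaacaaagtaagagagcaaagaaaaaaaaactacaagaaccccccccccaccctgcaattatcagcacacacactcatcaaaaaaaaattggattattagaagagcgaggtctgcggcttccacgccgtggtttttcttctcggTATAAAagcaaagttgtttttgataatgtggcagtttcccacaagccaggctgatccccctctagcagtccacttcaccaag
Il2rg: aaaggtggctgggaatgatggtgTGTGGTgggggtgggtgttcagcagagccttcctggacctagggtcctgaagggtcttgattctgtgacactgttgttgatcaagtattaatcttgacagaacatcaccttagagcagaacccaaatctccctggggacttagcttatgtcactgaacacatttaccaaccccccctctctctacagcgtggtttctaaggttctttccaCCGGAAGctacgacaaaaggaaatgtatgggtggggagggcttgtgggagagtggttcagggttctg
Tmsb4x: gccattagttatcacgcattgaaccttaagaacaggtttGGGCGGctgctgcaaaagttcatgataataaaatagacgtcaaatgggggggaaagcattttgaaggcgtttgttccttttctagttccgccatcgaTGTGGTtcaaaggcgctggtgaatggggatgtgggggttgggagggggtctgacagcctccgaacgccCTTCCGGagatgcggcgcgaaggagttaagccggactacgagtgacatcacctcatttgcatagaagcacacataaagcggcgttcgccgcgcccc
Eef1a1: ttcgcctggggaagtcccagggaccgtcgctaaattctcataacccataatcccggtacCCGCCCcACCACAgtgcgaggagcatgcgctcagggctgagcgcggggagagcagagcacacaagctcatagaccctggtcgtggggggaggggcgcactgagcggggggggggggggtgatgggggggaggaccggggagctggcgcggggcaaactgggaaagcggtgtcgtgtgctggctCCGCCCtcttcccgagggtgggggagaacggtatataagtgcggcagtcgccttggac
The Foxp3 region is chrX:7579426-7579725 on the plus strand, and its TATAAA begins 32 bases before the start. The Il2rg region, chrX:101268206-101268505 on the minus strand, has an ETS core that begins 17 bases before the start. The Tmsb4x region, chrX:167209169-167209468 on the minus strand, has an ETS core that begins 46 bases before the start. The start used for Tmsb4x, the first listed, lies inside the span of the gene, 167207093 to 167213479, and is not its outermost. The Eef1a1 region, chr9:78481675-78481974 on the minus strand, has 2 GC boxes. A match is only a run of letters and shows no binding.

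Of 133 transcription factors listed, 124 were in the table and 86 of them reached 5 RPKM in both libraries, with 28 at 50 RPKM or more. Over all genes 54.7% reached the lower level and 8.74% the higher. Ets1, which T cells use throughout their development, was the highest at 386 and 366 RPKM. Next came Tcf7, the factor TCF-1 of quiescent T cells, at 275 and 264 RPKM, and its pair did not overlap that of Ets1. Foxp3 was the fifth by mean level behind Ikzf2, and those 2 pairs overlapped. Klf2, which maintains quiescence and recirculation, was at 121 and 122 RPKM. Nfkb1, the p105 and p50 subunit of NF-kB, was at 118 and 117 RPKM. Jund was at 108 and 117 RPKM, Irf1 at 98.8 and 105 RPKM and Ikzf1 (Ikaros) at 89.5 and 93.7 RPKM. The pair of Klf2 lay within that of Foxp3, and the pair of Nfkb1 just below it.

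All 24 regulators of Treg or T lineage identity in the table were at 5 RPKM or more in both libraries, against 54.7% of all genes, and 11 were at 50 RPKM or more. Bcl11b, which guards T cell commitment, was at 82.5 and 78.8 RPKM. Foxo1, which drives genes of naive T cells, was at 76.0 and 73.2 RPKM. Id3, an inhibitor of E proteins, was at 63.6 and 75.7 RPKM. Runx3 and Foxo3, whose pairs overlapped, were at 10.6 and 11.2 RPKM and 13.4 and 11.2 RPKM. Ikzf4 (Eos), a partner of Foxp3, was at 55.0 and 54.3 RPKM, Satb1 at 48.3 and 48.1 RPKM and Gata3 at 47.0 and 44.9 RPKM.

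Of the regulators of effector Treg and helper lineages 7 of 15 (46.7%) reached 5 RPKM in both libraries, beside 54.7% of all genes. Batf, an AP-1 partner needed in tissue Treg cells, led at 50.5 and 57.0 RPKM. Hif1a was at 41.2 and 38.3 RPKM, Maf at 38.8 and 38.1 RPKM and Irf4 at 15.5 and 14.2 RPKM. Bhlhe40 was at 13.9 and 13.8 RPKM and Bcl6, the regulator of follicular T cells, at 11.5 and 9.92 RPKM. Prdm1 (Blimp-1), which marks effector Treg cells, was at 4.88 and 3.37 RPKM. The Th1 factor Tbx21 was at 3.25 and 4.49 RPKM. Pparg, known from fat-tissue Treg cells, was at 0.391 and 0.581 RPKM. Zeb2 and Pparg were the only members of this list under 1 RPKM in both libraries.

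**Figure D2:**
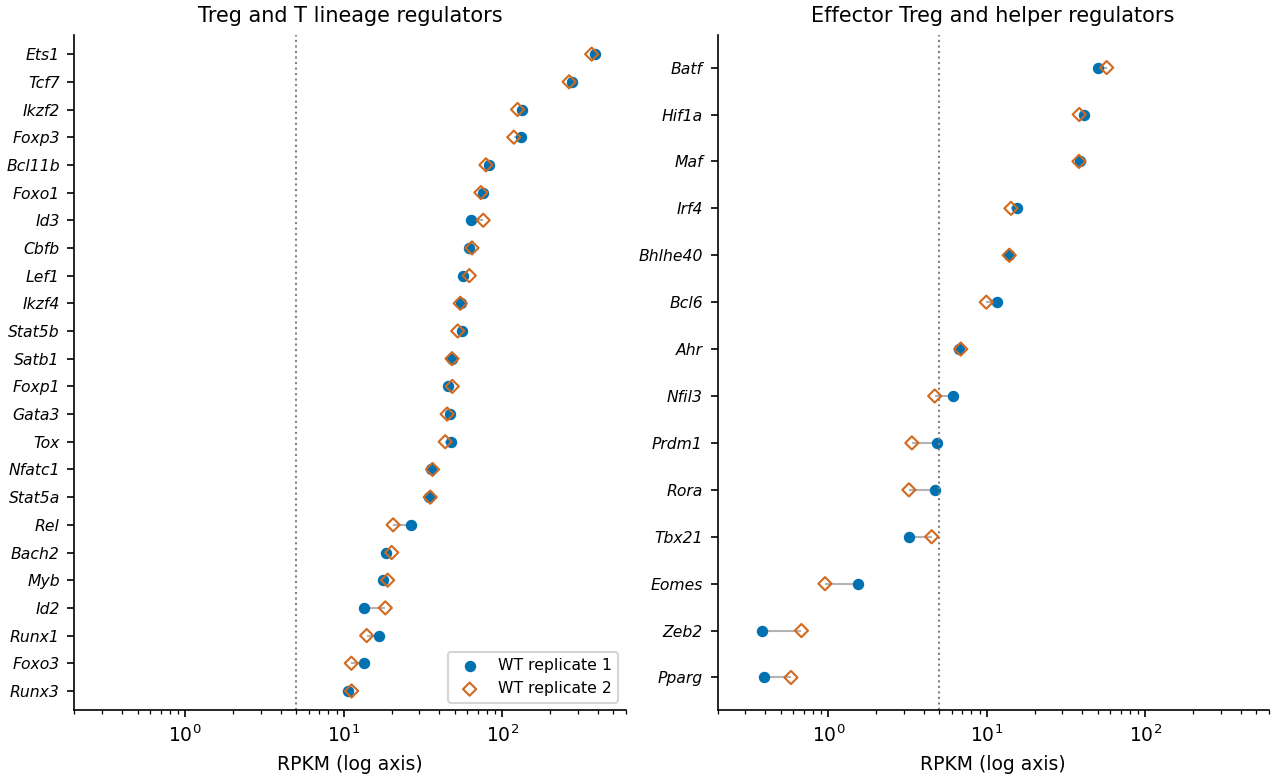
RPKM (log axis) of each listed regulator in WT replicate 1 (filled circles) and replicate 2 (open diamonds), joined by a line; the dotted line marks 5 RPKM. All 24 lineage regulators lie to the right of the line, and 7 of the 14 effector and helper regulators drawn do so in both libraries.

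Neighbouring members stood apart throughout the IKZF family, while several neighbours in the ETS and in the NF-kB and NFAT families overlapped. All 5 IKZF genes were at 5 RPKM or more, in the order Ikzf2, then Ikzf1, then Ikzf3 at 67.1 and 57.6 RPKM, then Ikzf4, then Ikzf5 at 15.3 and 13.2 RPKM. All 7 STAT genes passed the same level, which 54.7% of all genes passed, the lowest being Stat2 at 27.7 and 28.1 RPKM. Stat5b, which carries the interleukin 2 signal to Foxp3, was at 55.6 and 52.3 RPKM and Stat5a at 34.3 and 35.1 RPKM, a ratio of 1.62 and 1.49. In the ETS family Ets1 was followed at a distance by Elf1 at 64.5 and 66.0 RPKM and Elf4 at 57.0 and 53.0 RPKM, with Erg at 0.0544 and 0 RPKM. Gabpa, which binds the ETS core as part of GABP, was at 19.6 and 19.3 RPKM. All 9 NF-kB and NFAT genes reached 5 RPKM, from Nfkb1 to Nfatc2 at 12.9 and 12.5 RPKM, with Nfatc3 at 63.1 and 60.5 RPKM and Rela at 54.5 and 48.2 RPKM. The NF-kB member Rel, which Treg cells need in the thymus, was at 26.7 and 20.5 RPKM.

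Of 15 KLF genes 7 (46.7%) reached 5 RPKM, with Klf13 at 64.3 and 61.5 RPKM and Klf3 at 59.9 and 60.6 RPKM behind Klf2, and Klf1, an erythroid factor, at 0.123 and 0 RPKM. Of 14 AP-1 genes 8 (57.1%) did so, and both shares are near the 54.7% of all genes. Jund and Junb, at 78.9 and 94.4 RPKM, were high, whereas Jun and Fos, the immediate early pair induced by stress and stimulation, were both under 5 RPKM, with Fos at 1.89 and 4.69 RPKM. Runx1 was at 16.6 and 13.9 RPKM and Lef1, the relative of Tcf7, at 56.3 and 61.9 RPKM. Cbfb, the shared partner of RUNX proteins, was at 61.2 and 64.3 RPKM, above each RUNX gene. Gata1, an erythroid and megakaryocytic factor, was listed at 20.6 and 23.4 RPKM, while the erythroid gene Alas2 was at 0.244 and 0.511 RPKM. The Gata1 span overlaps 2 predicted genes.
Smad4, the common SMAD, was at 38.3 and 39.3 RPKM, and Smad9 and Smad6, whose pairs overlapped, were at 0.0701 and 0.304 RPKM and 0 and 0.393 RPKM. Tcf12 and Tcf3, the E proteins of T cells, were at 34.2 and 36.6 RPKM and 31.7 and 29.2 RPKM. Irf9 was at 65.1 and 61.8 RPKM and Irf2 at 55.5 and 47.2 RPKM, and 7 of 9 IRF genes passed 5 RPKM.

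Of the Treg surface and suppressive molecules, 25 of 30 reached 5 RPKM in both libraries, beside 54.7% of all genes. Izumo1r, the folate receptor family member FR4, was the highest at 373 and 356 RPKM, apart from Il2ra. Tnfrsf18 (GITR) was at 177 and 172 RPKM and Tnfrsf4 (OX40) at 167 and 168 RPKM, both costimulatory receptors. Lrrc32 (GARP), which holds latent TGF-beta on the surface, was at 119 and 107 RPKM, and Tgfb1 itself was at 84.1 and 77.9 RPKM. Nrp1, a marker of thymus-derived Treg cells, was at 75.5 and 68.9 RPKM. Havcr2 (TIM-3) was at 0 and 0.943 RPKM and Areg at 1.40 and 0.288 RPKM, and these pairs overlapped. The suppressive cytokine gene Il10 was at 2.16 and 1.52 RPKM and Gzmb at 1.77 and 2.56 RPKM. Ebi3, a subunit of interleukin 35, was at 9.82 and 11.4 RPKM, and Il12a, which encodes the other subunit, was not analysed here. Il10 and Gzmb were under 3 RPKM in both libraries, below each of the 25 genes that passed.

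Of 13 antigen receptor and costimulatory chains, 12 were at 5 RPKM or more, beside 54.7% of all genes. Ptprc (CD45) was at 457 and 431 RPKM, Cd3g at 426 and 408 RPKM and Cd2 at 396 and 371 RPKM. Cd3e was at 372 and 382 RPKM, Cd5, which dampens the signal, at 269.9 and 254 RPKM, and Thy1 at 266 and 256 RPKM. The zeta chain Cd247 was lower than the other CD3 chains, at 46.7 and 49.0 RPKM. Only Cd8a of this list was under 5 RPKM.

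Of 8 receptors that share the common gamma chain, 7 reached 5 RPKM in both libraries, beside 54.7% of all genes. Il2rb and Il2rg, the signalling chains of the interleukin 2 receptor, were at 428 and 387 RPKM and 394 and 366 RPKM, and these pairs overlapped. Both stood above Il2ra, so its signalling chains were each transcribed at a higher level per length than the alpha chain. Il21r was at 98.6 and 98.4 RPKM, Il7r at 61.8 and 60.8 RPKM and Il4ra at 54.1 and 47.1 RPKM. The lowest was Il9r at 2.37 and 2.98 RPKM. Of 26 other cytokine receptors, 16 (61.5%) were at 5 RPKM or more, with Il27ra at 135 and 126 RPKM and Ifngr1 at 82.4 and 86.0 RPKM. Il6st (gp130) was at 70.2 and 60.1 RPKM and Il6ra at 66.0 and 63.6 RPKM. Tgfbr2, needed for the TGF-beta response, was at 59.9 and 53.9 RPKM and Il10rb at 46.7 and 51.3 RPKM. The interleukin 33 receptor gene Il1rl1 (ST2) was at 5.53 and 3.29 RPKM, and Il1r1 was listed at 0 in both libraries. Adenosine and purine receptors passed in 4 of 7 cases, with P2ry10 at 83.9 and 79.7 RPKM, P2rx7 at 49.4 and 42.3 RPKM and Adora2a, the receptor for suppressive adenosine, at 16.4 and 21.1 RPKM.

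In the TNF receptor superfamily 12 of 22 genes (54.5%) were at 5 RPKM or more in both libraries, near the 54.7% of all genes. At 1 RPKM or more in both were 13 genes, beside 71.1% of all genes, and the other 9 were under 1 RPKM in both. Cd27 was the highest at 197 and 209 RPKM, then Tnfrsf18 and Tnfrsf4. Tnfrsf1b (TNFR2), an expansion signal for Treg cells, was at 68.7 and 65.6 RPKM. Tnfrsf25 (DR3) was at 61.0 and 49.2 RPKM and Tnfrsf9 (4-1BB) at 58.8 and 55.3 RPKM. The B cell receptor gene Tnfrsf13c was at 0.626 and 0.797 RPKM and Cd40 at 0.0326 and 0.545 RPKM. Each of the upper neighbours among the 4 highest, Cd27, Tnfrsf18, Tnfrsf4 and Tnfrsf1b, stood apart in level.

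Of 20 chemokine receptors 8 (40%) reached 5 RPKM in both libraries, beside 54.7% of all genes. Ccr7, which guides naive and central cells to lymphoid tissue, was at 110.2 and 116 RPKM, above Cxcr3 at 34.9 and 31.7 RPKM and Cxcr5 at 30.7 and 28.5 RPKM. Ccr8, Cxcr4 and Ccr6 were at 17.3 and 17.0 RPKM, 15.0 and 11.7 RPKM and 12.5 and 10.1 RPKM. Ccr10 and Cx3cr1, whose pairs overlapped, were at 0 and 0.0677 RPKM and 0.0335 and 0.0622 RPKM. Of 18 homing and egress genes, 14 (77.8%) passed. Itgb7 was at 304 and 282 RPKM and Itgb2 at 212 and 216 RPKM, with Itgal, the partner of Itgb2 in LFA-1, at 202 and 177 RPKM. Selplg, the P-selectin ligand, was at 154 and 152 RPKM. S1pr1, which carries T cells out of lymphoid tissue, was at 145 and 134 RPKM, 2.81 and 2.80 times S1pr4. Cd44, raised on effector and memory cells, was at 26.3 and 24.4 RPKM.

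**Figure D3:**
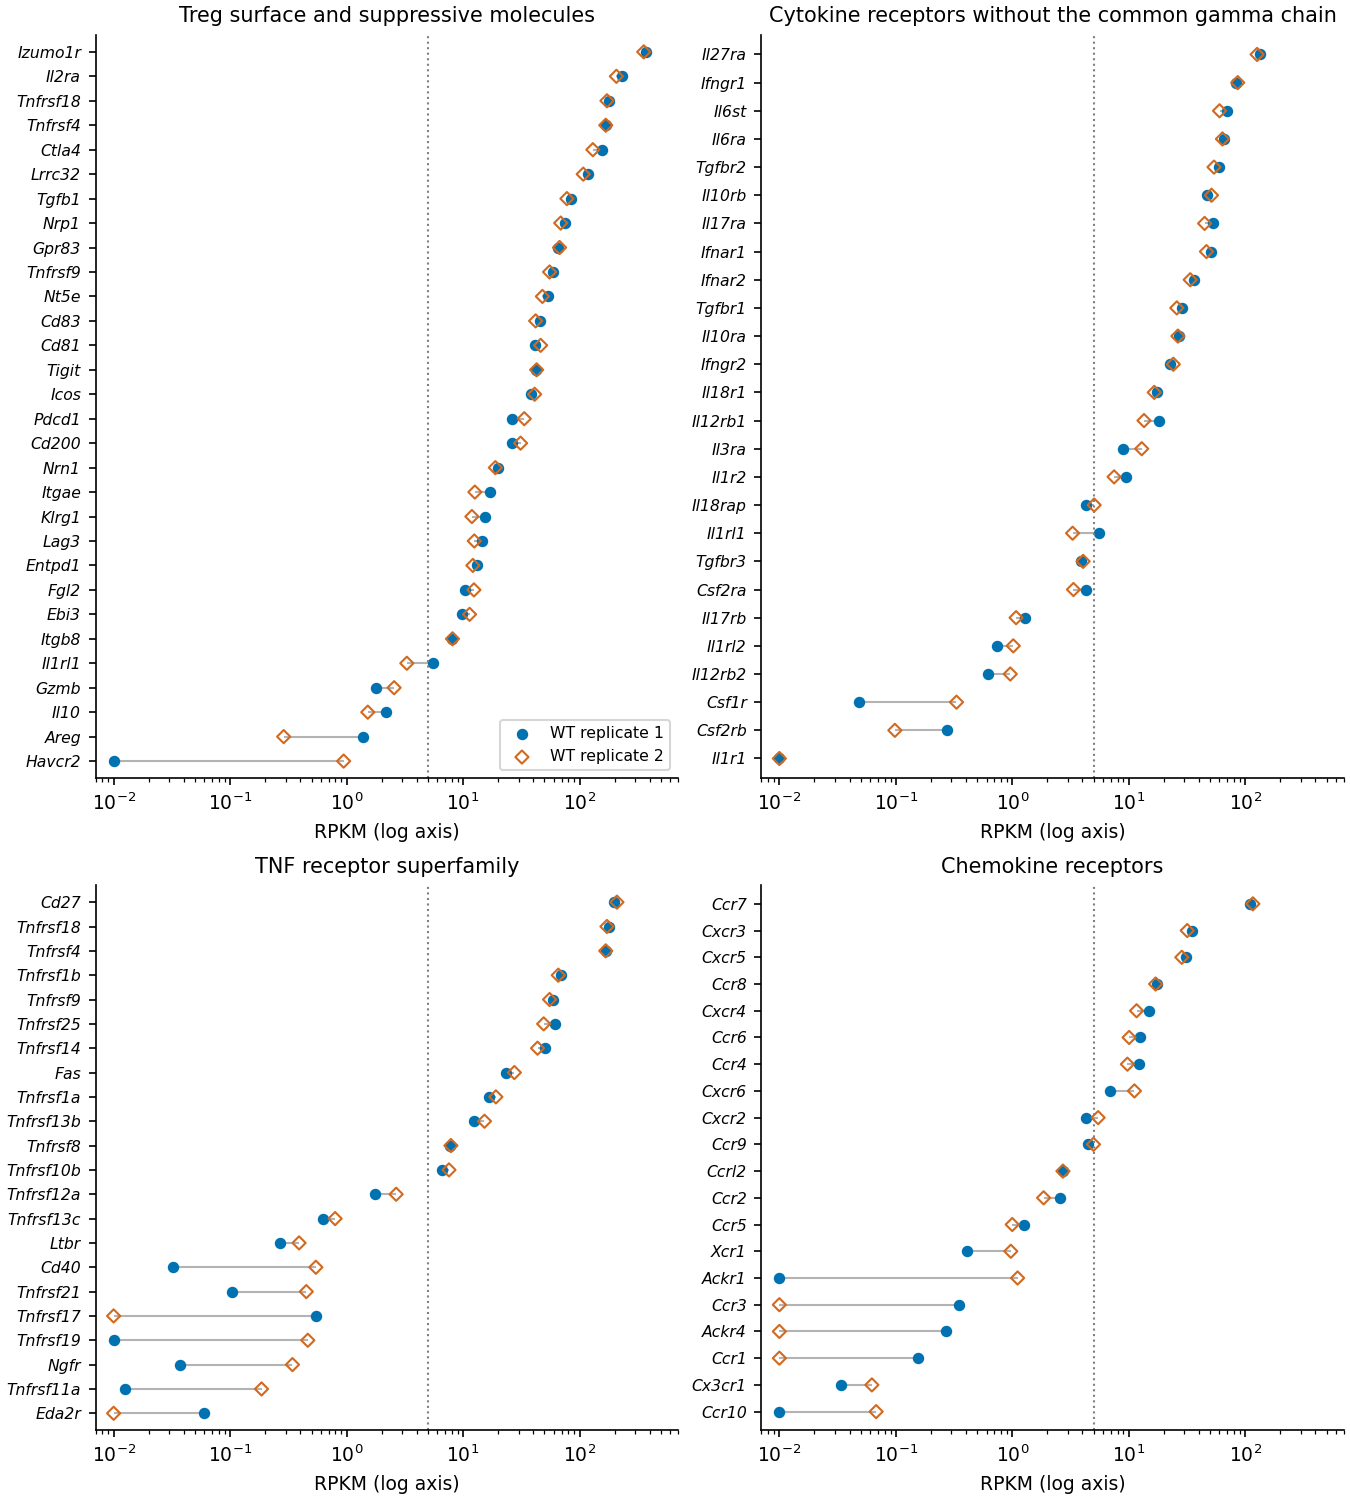
RPKM (log axis) of receptor genes in WT replicate 1 (filled circles) and replicate 2 (open diamonds), with genes listed at 0 drawn at 0.01 and a dotted line at 5 RPKM. In the TNF receptor panel 12 of 22 genes lie right of the line in both libraries, in the chemokine receptor panel 8 of 20, and the longest joining lines belong to members under 1 RPKM, where few reads make a level.

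All 26 listed genes of the proximal T cell receptor pathway were at 5 RPKM or more in both libraries, beside 54.7% of all genes, and their median level was 73.0 RPKM, against 7.31 RPKM over all genes. Dgka, a kinase that removes the lipid messenger diacylglycerol, was the highest at 451 and 411 RPKM. Lat, the adaptor that gathers the signal, was at 369 and 398 RPKM and Lck, the kinase bound to CD4, at 327 and 328 RPKM. Fyn was at 156 and 161 RPKM, Dgkz at 136 and 126 RPKM and Lcp2 (SLP-76) at 127 and 116 RPKM. The lowest was Themis at 12.4 and 11.5 RPKM. Dgka was 3.31 and 3.26 times Dgkz.

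All 13 transducers of cytokine signals passed 5 RPKM in both libraries, as did 54.7% of all genes. Jak1, used by many cytokine receptors, was at 184 and 164 RPKM, and Jak3, the partner of the common gamma chain, at 93.2 and 79.0 RPKM. The feedback genes Socs3 and Cish, themselves targets of STAT5 or STAT3, were at 83.9 and 83.1 RPKM and 83.6 and 77.2 RPKM. Ptpn2 was the lowest at 11.5 and 9.14 RPKM. In the PI3K, AKT and mTOR list 20 of 22 passed. Pik3cd, the leukocyte catalytic subunit, was at 121 and 109.6 RPKM, which was 7.86 and 7.39 times Pik3ca. Akt2 was at 49.0 and 46.9 RPKM and Akt1 at 40.8 and 42.5 RPKM. The lowest of the list was Pik3cb at 2.07 and 2.26 RPKM. MAP kinase genes passed in 17 of 18 cases, with Dusp2, a phosphatase of activated ERK, at 62.4 and 62.9 RPKM.

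Small GTPases of the group to which Rac2, RhoA and Cdc42 belong, with their partners, passed in 18 of 25 cases (72%), beside 54.7% of all genes. Arhgdib, an inhibitor that holds these GTPases in the cytosol of blood cells, was at 506 and 535 RPKM, and Arhgef1, an exchange factor for RhoA, at 511 and 469.7 RPKM. Rac2, the GTPase of blood cells, was at 399 and 384 RPKM, above Rac1 at 139.7 and 147 RPKM by 2.86-fold and 2.61-fold. Rhoa was at 177 and 196 RPKM and Cdc42 at 166 and 161 RPKM. Was, an effector of Cdc42 found in blood cells, was at 83.2 and 77.7 RPKM, 6.19 and 6.53 times the widespread Wasl. Pak2 was at 80.8 and 78.6 RPKM, and Dock2, an exchange factor for Rac in lymphocytes, at 119 and 109 RPKM. Rhou, a low member, was at 0.168 and 0.173 RPKM.

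Of 17 cytokine and effector genes 8 (47.1%) reached 5 RPKM in both libraries, beside 54.7% of all genes. Ltb, lymphotoxin beta, was the highest at 562 and 569 RPKM, then Tgfb1, then Lta at 76.0 and 65.4 RPKM. Tnfsf8 was at 42.2 and 33.8 RPKM, Tnfsf11 (RANKL) at 24.1 and 25.8 RPKM and Tnf at 22.9 and 19.4 RPKM. Ifng was at 1.45 and 2.22 RPKM and Il4 at 0.447 and 0 RPKM. Il21 was at 0.0322 and 0 RPKM. Listed symbols such as Il2 and Il17a were not analysed here.

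Most listed enzymes of central metabolism were at 5 RPKM or more in both libraries. Of 31 genes of pyruvate entry and the TCA cycle 28 reached 5 RPKM, as did 25 of 26 of glutamine, amino acid and nucleotide metabolism, 7 of 7 of the pentose phosphate pathway, 20 of 24 of fatty acid and sterol synthesis, 17 of 23 of fatty acid oxidation and 17 of 28 of glucose uptake and glycolysis. The share of all genes was 54.7%, which the glycolysis share (60.7%) was near. The enolase gene Eno1 was among listed symbols not analysed here. In the glycolysis list 24 of 28 genes were at 1 RPKM or more in both libraries, beside 71.1% of all genes. The other 4, Hk3, Slc2a4, Slc2a2 and Pklr, were under 1 RPKM in both.

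Pkm, pyruvate kinase, was the highest glycolytic gene at 242 and 246 RPKM, with Ldha, lactate dehydrogenase, at 186 and 183 RPKM. Aldoa was at 146 and 144 RPKM, Gpi1 at 145 and 137 RPKM and Pgk1 at 106 and 116 RPKM. Gapdh was at 152 and 146 RPKM, and its reads could be split with near-identical copies, which was not tested, so this level is uncertain. The glucose transporter genes Slc2a3 and Slc2a1 were at 31.0 and 25.4 RPKM and 21.2 and 21.9 RPKM, and Slc2a2 was at 0.171 and 0.5 RPKM. Hk1, the hexokinase of most tissues, was at 41.6 and 37.9 RPKM, against 1.99 and 2.52 RPKM for the inducible Hk2, a ratio of 20.8 and 15.0. Pfkp was 2.11 and 2.21 times Pfkl, and Ldha was 4.11 and 4.99 times Ldhb. Pklr, the pyruvate kinase of liver and red cells, was listed at 0 and 0.125 RPKM.

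Among the listed genes of pyruvate entry and the TCA cycle, Mdh2 was the highest at 114 and 125 RPKM. Sdha, a subunit of succinate dehydrogenase, was at 87.9 and 89.7 RPKM and Idh3b at 78.9 and 82.1 RPKM. Mdh1 was at 75.4 and 88.0 RPKM and Cs, citrate synthase, at 70.2 and 57.5 RPKM. Pdk1, which turns pyruvate dehydrogenase off, was at 37.5 and 35.2 RPKM, 2.26 and 2.33 times Pdk3, and Pdk4 was at 0.0182 and 0.0338 RPKM. Among the fatty acid oxidation genes Hadhb, a subunit of the mitochondrial trifunctional protein, was at 58.8 and 53.6 RPKM. Acsl5, which activates long fatty acids, was at 54.2 and 51.3 RPKM, and these pairs overlapped. Cpt1a, the gate for fatty acid entry into mitochondria, was at 21.8 and 22.8 RPKM and supplied 99.4% and 99.7% of the summed RPKM of the CPT1 genes. Cpt1b was listed at 0 in both libraries.

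Slc1a5, a glutamine transporter, was the highest gene of its list at 103 and 99.9 RPKM. Glud1, which turns glutamate into a TCA intermediate, was at 81.2 and 84.8 RPKM. Impdh2, needed for guanine nucleotides, was at 78.3 and 82.1 RPKM. Taldo1 led the pentose phosphate genes at 81.2 and 74.6 RPKM, and Elovl5 the lipid synthesis genes at 74.8 and 68.2 RPKM, with Acly, which makes cytosolic acetyl-CoA, at 62.5 and 57.0 RPKM. Srebf2, a main regulator of sterol synthesis, was at 60.0 and 51.1 RPKM. Acaca was at 6.84 and 7.64 RPKM against 0.318 and 0.206 RPKM for Acacb. Of the redox and iron genes Ftl1 and Fth1, the ferritin chains, were at 368 and 384 RPKM and 176 and 206 RPKM, and Sod1 was at 171 and 200.3 RPKM.

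Of 15 metabolic gene families all 15 had a leading member apart from the next in level, and in 8 of them it held over 80% of the summed RPKM in both libraries. The isocitrate dehydrogenase family pools the subunit genes Idh3a, Idh3b and Idh3g with Idh1 and Idh2, so Idh3b leads no set of rival enzymes.

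**Figure D4:**
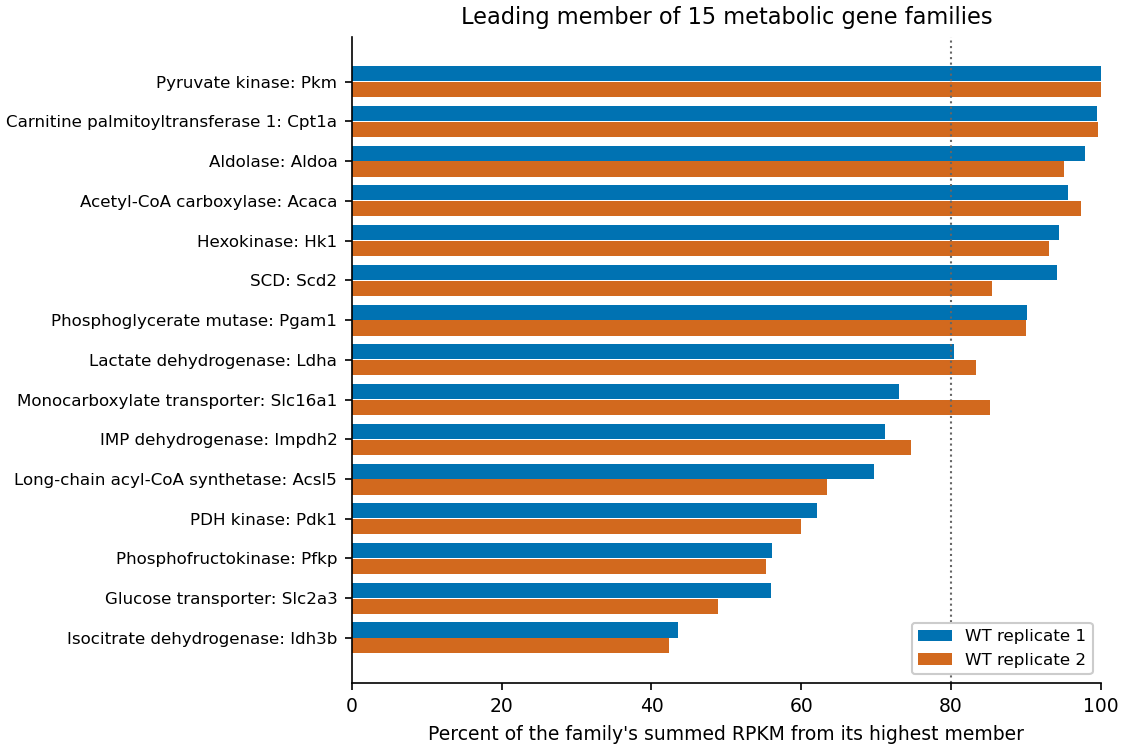
Percent of a family's summed RPKM that comes from its highest member, for 15 metabolic families, with a bar for each WT library; the dotted line marks 80%. Pkm and Cpt1a hold nearly all of their families, Hk1 holds 94.4% and 93.1%, and Idh3b of the isocitrate dehydrogenases holds 43.5% and 42.3%.

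The libraries themselves differed in a small set of genes. With a pseudocount of 1 RPKM and a mean of at least 5 RPKM, 56 genes (0.679% of 8251) were past 2-fold higher in replicate 2 and 35 (0.424%) in replicate 1. Of these, 25 and 30 have a counted length under 300 nt, where few reads make a level. The most extreme in replicate 2 were Mir709, Mir7079, Snord4a, Mir1894, Mir5119 and Snora2b, with at most 14 reads each there. In replicate 1 they were Mir677, Rnu73b, Mir186, Mir199a-1, Mir1291 and Snord23, with 0 reads in replicate 2 and at most 34 in replicate 1. Counting only genes of 300 nt or longer left 31 and 5 genes.

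Some of the longer ones are known from other tissues. Ttr, the thyroxine carrier made in liver, was at 39.1 and 163 RPKM, from 759 and 1704 reads. Krt14, a keratin of basal epithelium, was at 25.7 and 90.4 RPKM and Krt17 at 26.5 and 85.4 RPKM. Apoa1, a plasma apolipoprotein, was at 5.85 and 25.5 RPKM, and Fabp4 of fat cells at 2.94 and 17.7 RPKM. A set of 22 genes of epithelium, liver, gut, glia, muscle, fat and fibroblasts was picked after their values were seen. All 22 were higher in replicate 2, by 2.30-fold to 6.01-fold with a median of 3.46-fold, a count that depends on that choice. Some, such as Gfap and Col1a1, averaged under 5 RPKM and are outside the genes counted above. The reads of all 22 were 0.0285% and 0.0987% of the libraries. Rn45s was 2.10-fold, Mir6236 1.96-fold and Lars2, at 1099 and 1943 RPKM, 1.77-fold higher in replicate 2, while Malat1, a nuclear long RNA, was 1.62-fold lower, at 431 and 267 RPKM. Whether the reads of these other-tissue genes came from the sorted cells was not tested. Their part in any other level was not tested, and the 4 Treg markers were within 1.25-fold between the libraries.

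**Figure D5:**
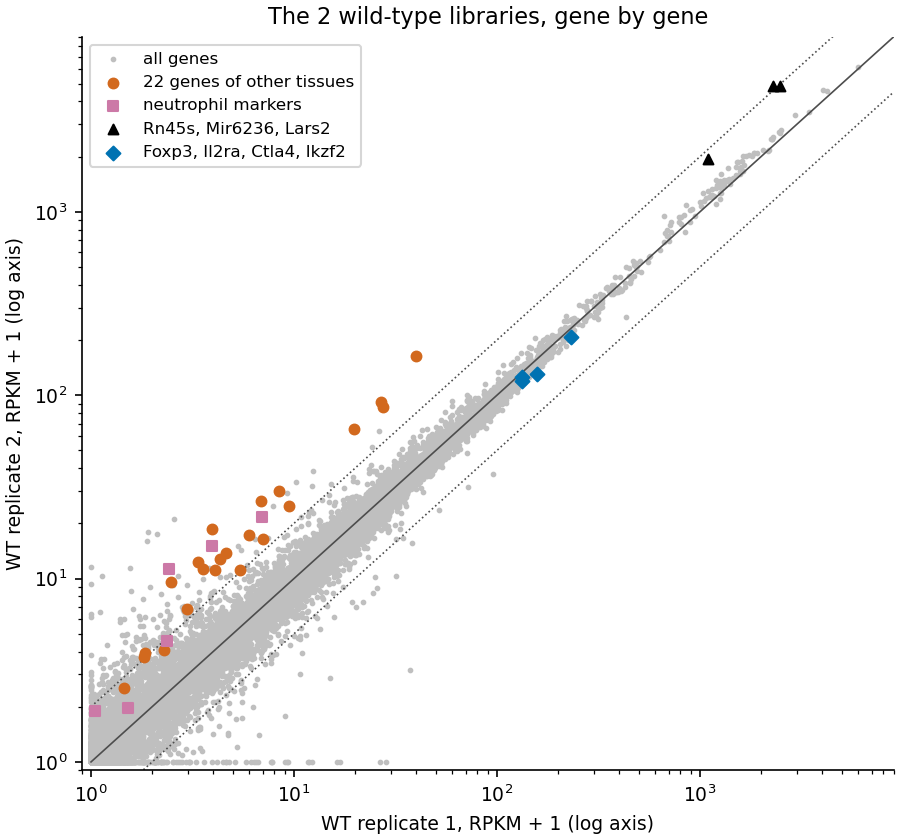
RPKM + 1 of each gene in WT replicate 1 (horizontal log axis) and replicate 2 (vertical log axis); grey points are all genes, the solid line is equality, dotted lines are 2-fold, and coloured points are the gene sets named in the legend. The 22 genes of other tissues lie above the solid line, as do the ribosomal RNA precursor Rn45s, Mir6236 and Lars2, while Foxp3, Il2ra, Ctla4 and Ikzf2 lie near it.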

How the data were processed

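RNA was sequenced from 2 WT mice of a series of 6 samples. The authors deposited 2 tables that both hold the WT libraries; per the submitters' processing notes, reads were aligned with TopHat to mm10. Counter, annotation and strand setting are not given in the sources used here. The headers name no unit: the deposited RPKM values were recognised because each is a whole number of reads scaled by a whole gene length and 1 library total. The authors' mean per group, per the file headers, is a signal of scaled reads. Both together gave back whole reads (100% within 0.01) that differed at 0 genes between the tables. Genes not in the table held 0.0342% and 0.0581% of the reads. Columns of unknown sample numbered 0.

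Gene lists (41, with 632 symbols, of which 588 are in the table) and the members were chosen with earlier results of these data known. No test was made, since only 1 genotype is described. A gene counted as expressed at 1 RPKM, and a list member at 5 RPKM, in both libraries. Named genes are the 20 highest, the 10 highest transcription factors, the Treg markers, up to 6 of each list with its lowest member and family rivals, and the 6 most different in each direction. Predicted genes were skipped, and some members that this rule names are not reported here. Members named beyond this were chosen after their values were seen. RefSeq (GRCm38.p6) matched 14593 genes. The labels place the libraries in separate mice, and the value of 3 reads covers counting error only. Python 3.11.15, pandas 2.3.3 and matplotlib 3.10.9 were used. Alternatives changed the level, the length filter, the scaling, the pseudocount and the library left out.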

Additional observations from a re-analysis of the deposited data

How the results depend on the processing

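No paired analysis was possible because the levels of 1 genotype come from no test. Of 20 alternative values of the main counts 14 stayed within 1.5 times. With a mean of at least 1 RPKM, 192 genes were past 2-fold higher in replicate 2 and 97 in replicate 1; with no filter the counts were 233 and 133. Restricting to genes of 300 nt or longer, chosen after the data were seen, gave 31 and 5. Of 70 alternative values of list counts, marker ranks and motif shares 64 stayed, counts and ranks within 1.5 times and motif shares within the 95% binomial interval of the main share. Markers of other cells at 5 RPKM fell from 4 to 1 at a level of 10 RPKM and rose to 7 at 5 TPM, a lower level than 5 RPKM. By reads not divided by length, Il2ra took rank 102, Ctla4 678 and Ikzf2 66. Counting any listed start, also chosen after the data were seen, put the ETS core in 22.9% of promoters at 1 RPKM or more. Libraries of unequal depth limit genes under 1 RPKM.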

Other observations

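Genes of the cell cycle and of survival, chosen after their values were seen, were also measured. Ccnd2, a cyclin that T cells use to enter the cycle, was at 143 and 144 RPKM, and the inhibitor Cdkn1b (p27) at 96.1 and 89.7 RPKM. Pcna, the replication clamp, was at 112 and 107 RPKM, while Mki67 and Top2a, which mark dividing cells, were at 6.53 and 7.73 RPKM and 12.3 and 13.8 RPKM, and Cdk1 at 1.63 and 1.96 RPKM. Mcl1, a survival protein of the Bcl2 family, was at 222 and 199 RPKM, Bcl2 at 70.8 and 67.7 RPKM and their antagonist Bcl2l11 (Bim) at 10.6 and 9.50 RPKM. Btg1, a gene of quiescent lymphocytes, was at 222 and 219 RPKM. Each of these genes was within 1.25-fold between the libraries. Hspa8, the constitutive heat shock protein, was at 635 and 619 RPKM, and the stress-induced Hspa1b at 0.291 and 0.0831 RPKM, from 13 and 2 reads.

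The labels give no sex for the mice. The Y-linked genes Ddx3y and Eif2s3y were at 37.7 and 42.4 RPKM and at 50.8 and 47.2 RPKM. Xist, the RNA of the inactive X chromosome, was at 0.199 and 1.13 RPKM, from 63 and 192 reads, and was higher in replicate 2. The picked genes of other tissues were also higher in that library. Whether the 2 differences are linked was not tested.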
